A study of Schizosaccharomyces pombe with 144 samples.

Results

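The TOR and TSC genes of fission yeast examined here are tor2, mip1, tor1, ste20, gad8, tsc1, tsc2 and rhb1, which encode the core of the TOR kinase network and were chosen by name. All 8 were found among the 5157 genes of the deposited expression table. TOR is a growth kinase that works in a pair of complexes. In TOR complex 1 the kinase Tor2 acts with Mip1, the homologue of Raptor, to promote growth while nutrients last and to hold back sexual differentiation. In TOR complex 2 the kinase Tor1 acts with Ste20, the homologue of Rictor, and passes its signal to the AGC kinase Gad8, and this branch is needed for survival under stress and for sexual differentiation. Tsc1 and Tsc2 form the TSC complex, which switches off the Rheb GTPase Rhb1, an activator of TOR complex 1.

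RNA was measured by total RNA sequencing in 10 libraries of 1 Schizosaccharomyces pombe strain, SPB2819, labelled clr4wt. One library came from a culture labelled Mitosis (as.), and 9 came from meiosis at 0 h and then each hour until 8 h. In all 10 libraries the cells were h-/h- diploids, ade6-M210/ade6-M216, in which both copies of pat1 were replaced (pat1::NatR) and an analog-sensitive allele, pat1-as(L95A)::HygR, was present in their place. Pat1 is the kinase that blocks meiosis in growing cells, so its loss of activity starts meiosis. The strain also carried a lacO array at cen2(D107) marked with KanR and ura4+, his7+::lacI-GFP and lys1::MatPc-Bleo. The growth protocol in the labels names YES, a rich medium, for exponential growth, and the treatment by which cultures reached meiosis 0 h is not given in the sources used here. The library labelled Mitosis (as.) and the 0 h library therefore differ in culture as well as in stage, and their effects cannot be told apart.

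There was 1 library per stage, so no difference below has a replicate check, no p-value is given, and a gene was called higher or lower by size alone. The call needed a difference of 1 or more on the log2(RPKM + 1) scale, that is 2-fold, and a level no lower than 5 RPKM in one or both of the libraries compared. RPKM divides the reads of a gene by its length in kilobases and by the reads of the library. The deposited values were scaled to 14998460 reads (6 h) to 20734255 reads (mitosis) per library, and the members held from 562 reads (ste20 at 6 h) to 7146 reads (rhb1 at 0 h). Counting intervals of 95% are given, and they cover counting error only. RPKM is a share of the library, so a value depends on the other transcripts in it. The RNA of isp3, a spore gene, made up 0.0109% of the summed RPKM in mitosis and 1.06% at 0 h. At 6 h, 7 h and 8 h it made up 11.6%, 15.6% and 18.5%. At 6 h, 7 h and 8 h the median gene stood at -0.69, -0.78 and -0.47 relative to 0 h on that log2 scale, and mitosis lay at -0.52 from 0 h. Each result is therefore also given after each library was rescaled by its median ratio to the geometric mean library, which puts the median gene close to no change by construction. The cause of the shifts of the median gene was not tested.

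The 8 genes covered a wide span of levels. The GTPase gene rhb1 was the most abundant in every library, between the 86.3 and 94.7 percentile of all genes, with 145 RPKM in mitosis and 222 to 455 RPKM in meiosis. The kinase genes tor1 and tor2 and the large subunits were far lower. The lowest were tor1, ste20 and tsc2, which ranged from 8.16 RPKM (ste20 at 6 h) to 22.2 RPKM (tsc2 at 4 h) and never passed the 25.8 percentile. All of these levels are per length of gene, which allows them to be set side by side with a limit. Reads of annotated genes that overlap the members, rhb1 among them, may be included in the values.

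**Figure D1:**
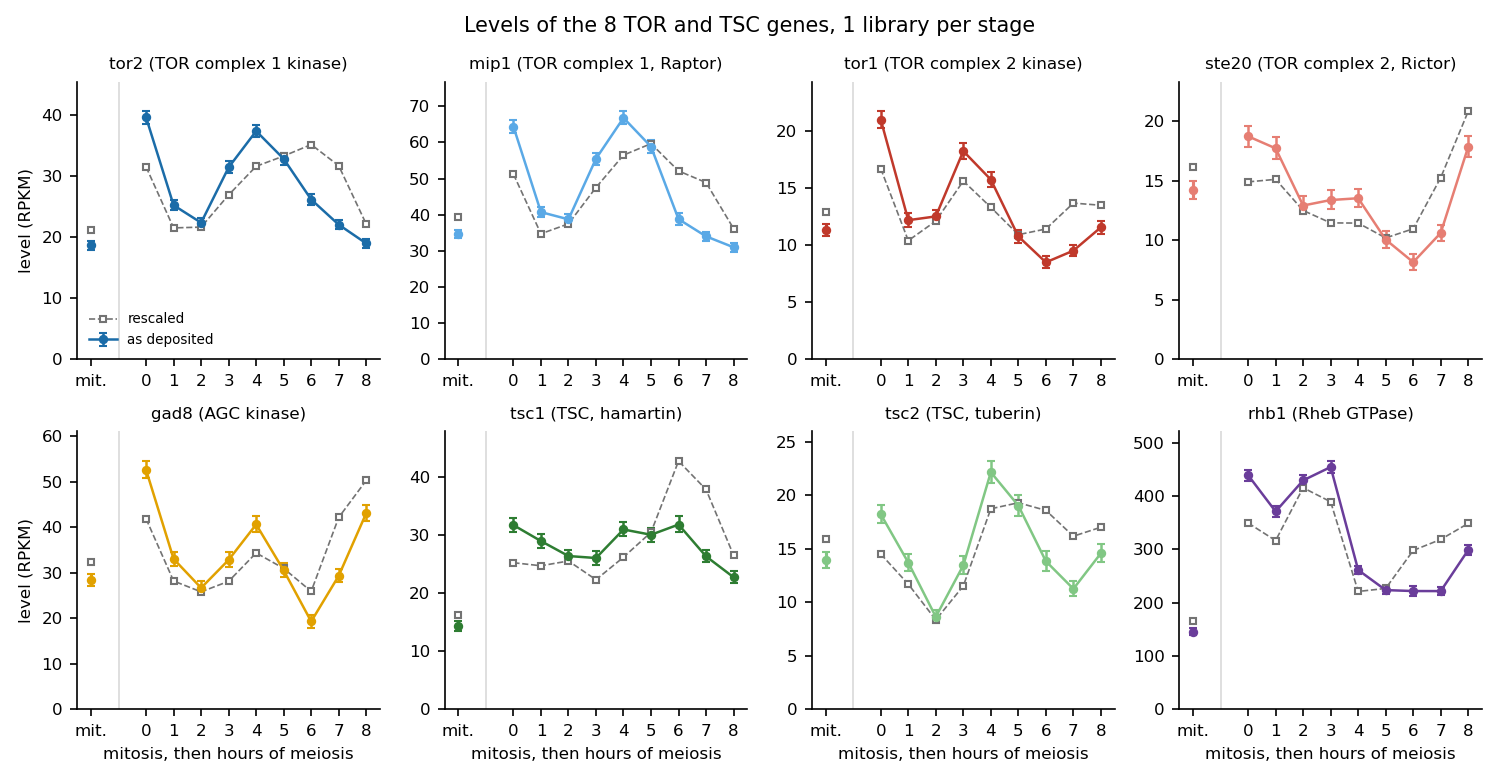
Level of each of the 8 genes (vertical axis, RPKM, from 0) in the mitosis library and at 0 h to 8 h of meiosis (horizontal axis). Filled circles are deposited values with 95% counting intervals, and open squares are the same values after rescaling. On the deposited scale 5 of the panels start high at 0 h and end lower or turn up again at 8 h, tsc1 stays between 22.7 and 31.8 RPKM through meiosis, and rhb1 is lower from 4 h on than before.

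In TOR complex 1, tor2 measured 18.6 RPKM in mitosis and 39.5, 25.2, 22.3, 31.4, 37.3, 32.8, 26.1, 22.0 and 18.9 RPKM from 0 h to 8 h. It was therefore high at 0 h, low at 2 h, high again at 4 h, and at 8 h back at its level in mitosis, where the counting intervals overlapped. Its partner mip1 measured 34.6 RPKM in mitosis and 64.4, 40.7, 38.7, 55.5, 66.8, 58.8, 38.8, 34.0 and 31.0 RPKM over the same hours. The peaks at 0 h and 4 h had overlapping intervals, and the dip at 1 h and 2 h lay between them. After rescaling, the dip remained at 21.5 RPKM for tor2 and 34.7 RPKM for mip1 at 1 h. The later maximum then fell at 6 h for tor2 (35.1 RPKM) and at 5 h for mip1 (59.7 RPKM), so the hour of that maximum depends on the scaling.

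In TOR complex 2, tor1 measured 11.3 RPKM in mitosis and 21.0, 12.2, 12.5, 18.2, 15.7, 10.8, 8.50, 9.52 and 11.6 RPKM from 0 h to 8 h. It had peaks at 0 h and 3 h and its lowest level at 6 h, and the levels at 1 h, 2 h, 8 h and in mitosis lay close together, each with an interval that overlapped its neighbour's. After rescaling 0 h and 3 h remained the highest (16.7 and 15.6 RPKM), and the lowest level was at 1 h (10.4 RPKM), with 11.4 RPKM at 6 h. Its partner ste20 measured 14.2 RPKM in mitosis and 18.7, 17.7, 12.9, 13.4, 13.5, 10.1, 8.16, 10.6 and 17.9 RPKM. It was highest at 0 h, 8 h and 1 h, with overlapping intervals from each to the next, and lowest at 6 h. Downstream, gad8 measured 28.4 RPKM in mitosis and 52.6, 33.0, 26.6, 32.8, 40.6, 30.5, 19.3, 29.3 and 43.1 RPKM. Like ste20 it was lowest at 6 h and came back by 8 h. After rescaling the lowest hours were 2 h for gad8 (25.8 RPKM, with 25.9 RPKM at 6 h) and 5 h for ste20 (10.2 RPKM, with 11.0 RPKM at 6 h). On the rescaled values gad8 and ste20 were highest at 8 h (50.3 and 20.8 RPKM), above 0 h (41.8 and 14.9 RPKM), so the order of those 2 hours turns with the scaling.

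In the TSC branch, tsc1 measured 14.3 RPKM in mitosis and 31.7, 29.0, 26.4, 26.1, 31.0, 30.1, 31.8, 26.3 and 22.7 RPKM in meiosis. Every meiotic library was above mitosis, and the hours differed little, with a highest level 1.40 times the lowest. Only 0.709% of the 4937 genes compared had so narrow a range on the deposited scale, where the median gene had a ratio of 3.14. After rescaling, tsc1 was no longer flat, with a ratio of 1.92 (percentile 21.2) and a maximum of 42.8 RPKM at 6 h. Its partner tsc2 measured 14.0 RPKM in mitosis and 18.2, 13.7, 8.63, 13.5, 22.2, 19.0, 13.8, 11.3 and 14.6 RPKM. It was lowest at 2 h and highest at 4 h, a 2.57-fold span, and after rescaling the low point stayed at 2 h while the levels of 4 h, 5 h and 6 h came within 18.6 to 19.3 RPKM. The GTPase gene rhb1 measured 145 RPKM in mitosis and 439, 371, 430, 455, 261, 223, 222, 222 and 299 RPKM. It was high from 0 h to 3 h, lower from 4 h to 7 h, and above mitosis in every meiotic library. After rescaling the low stretch was 4 h and 5 h (221 and 227 RPKM), 7 h (319 RPKM) stood beside 1 h (316 RPKM), and every meiotic library was still above mitosis (166 RPKM).

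Compared with mitosis, the 0 h library held more RNA of all 8 genes on the deposited scale. The 3 that passed 2-fold were rhb1 (145 to 439 RPKM, 3.02-fold, counting interval 2.88 to 3.16), tsc1 (14.3 to 31.7 RPKM, 2.22-fold, 2.07 to 2.37) and tor2 (18.6 to 39.5 RPKM, 2.13-fold, 2.03 to 2.22). Across all genes tested 29.1% passed 2-fold upward, so a count of 3 among 8 is near the background. The median difference of the 8 genes was 0.87 on the log2(RPKM + 1) scale, and that of all genes tested was 0.54. The genes tor1, mip1 and gad8 stood 0.84, 0.88 and 0.87 higher on the log2(RPKM + 1) scale, and ste20 and tsc2 0.38 and 0.36 higher, none of which met the call. After rescaling rhb1 alone met it, at 1.07, against 16.3% of all genes, and ste20 (-0.11) and tsc2 (-0.12) lay slightly below mitosis. No member was called lower, against 9.54% of all genes on the deposited scale and 16.5% on the rescaled one. The TSC partners were unlike in this, since tsc1 stood level with tsc2 in mitosis and above it at 0 h. The ratio of tsc1 to tsc2 was 1.03 (counting interval 0.95 to 1.11) in mitosis and 1.74 (1.64 to 1.85) at 0 h.

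Against 0 h, no member was called higher at any later hour, and calls of a lower level came only from 6 h on. From 1 h to 5 h, when 9.0%, 13.1%, 6.41%, 9.14% and 20.9% of all genes tested were called lower, none of the members was. At 6 h they were gad8 (0.37 of its 0 h RPKM, counting interval 0.34 to 0.40), tor1 (0.40, 0.38 to 0.43) and ste20 (0.44, 0.40 to 0.48). This count of 3 among 8 is near the background, since 38.9% of all genes were called lower. The 3 are the members of the TOR complex 2 branch, but the calls did not divide by complex among the other subunits. There toc1 and tco89 of complex 1 and bit61 of complex 2 were called lower at 6 h. The median difference of the 8 members at 6 h was -0.85, beside -0.72 over all genes tested. At 7 h tor1 alone was called (0.45, 0.43 to 0.48), against 41.2% of all genes. At 8 h the calls were tor2 (0.48, 0.46 to 0.50) and mip1 (0.48, 0.46 to 0.50), against 26.2% of all genes. Of the other subunits, bit61 of complex 2 was called lower at that hour. Over any hour 5 of 8 members were called lower, against 51.8% of all genes, and 0 higher, against 21.2%. These shares lie near or under the background, and after rescaling 0 members were called lower (25.1% of all genes) and 0 higher (33.5%).

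No member passed 4-fold in any comparison on either scale. On the deposited scale 9.29% of all genes did so upward at 0 h against mitosis, and 7.79% upward and 13.5% downward at some hour against 0 h. After rescaling the widest differences from 0 h were 0.74 for tsc1 at 6 h and -0.73 for tsc2 at 2 h. The range over the 9 meiotic libraries was then 1.61-fold (tor1) to 2.31-fold (tsc2), and the median gene had 2.64-fold. All 8 members were below that median on both scales, at percentiles of 0.709 (tsc1) to 38.0 (gad8) on deposited values and 7.88 (tor1) to 39.8 (tsc2) on rescaled values.

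**Figure D2:**
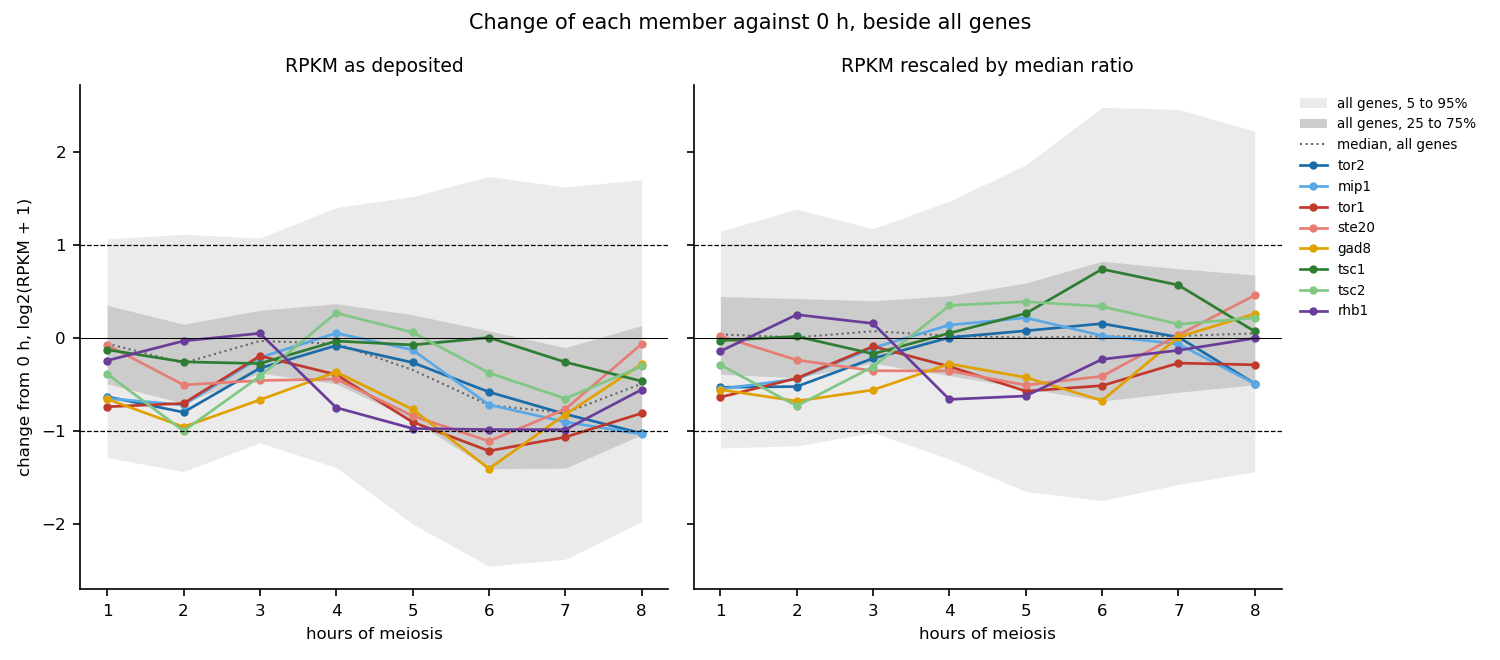
Change from 0 h of each member on the log2(RPKM + 1) scale (vertical axis) by hour of meiosis (horizontal axis), for deposited values on the left and rescaled values on the right. Grey bands hold the middle 50% and 90% of all genes tested, the dotted line is their median, and dashed lines mark 2-fold. On the left most members lie below 0 from 5 h to 8 h, as does the median of all genes, while tsc1 is at its 0 h level at 6 h (31.8 against 31.7 RPKM). On the right all 8 members stay within the dashed lines, between -0.73 and 0.74.

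From one hour to the next the members differed by 0.80 or less on the deposited scale. Some of these steps are given here with their percentile among all genes, which was nearly the same on both scales. Between 0 h and 1 h, the differences of tor1, gad8, mip1 and tor2 were -0.74, -0.66, -0.65 and -0.63 on the deposited scale, with percentiles of 15.4, 18.2, 18.5 and 19.4 among all genes, and the median of all genes was -0.06. Between 3 h and 4 h, the difference of rhb1 was -0.80 (percentile 7.84), from 455 to 261 RPKM. Over the same hour tsc2, which encodes the GTPase activator of Rhb1, differed by 0.68 (percentile 90.8), from 13.5 to 22.2 RPKM. The ratio of rhb1 to tsc2 was accordingly 33.8 (counting interval 31.7 to 36.1) at 3 h and 11.8 (11.1 to 12.5) at 4 h. It had been highest, at 49.8, at 2 h, and was 10.4 in mitosis. Between 6 h and 7 h, gad8 differed by 0.58 (percentile 94.3), from 19.3 to 29.3 RPKM. Between 7 h and 8 h, ste20 went from 10.6 to 17.9 RPKM, and the median of all genes was 0.32.

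Ratios within a library do not depend on its scaling, so they show which members moved apart. The ratio of tor2 to tor1 RNA, the kinases of the 2 complexes, was 1.64 in mitosis and 1.88, 2.07, 1.78, 1.72, 2.37, 3.04, 3.07, 2.31 and 1.64 from 0 h to 8 h. It was highest at 5 h and 6 h (counting interval at 6 h 2.86 to 3.31) and at 8 h had the value of mitosis, where the interval was 1.55 to 1.75. The ratio of mip1 to ste20, the Raptor and Rictor genes, was 2.44 in mitosis and 3.44, 2.30, 3.00, 4.15, 4.94, 5.85, 4.75, 3.20 and 1.74. It too was highest in mid-meiosis, at 5 h (5.44 to 6.30), and lowest at 8 h (1.63 to 1.85). In these 2 pairs there was thus more RNA of the complex 1 gene relative to the complex 2 gene at 4 h to 6 h. That was so against 0 h, 8 h and mitosis, beyond the counting error of each library. The pairs do not stand for each complex as a whole. On the deposited scale toc1 and tco89 of complex 1 were called lower at 6 h, as was bit61 of complex 2. The spread of such ratios over other pairs of genes was not taken.

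Between the TOR complex 1 members mip1 and tor2 the proportion varied less, and the other subunits, such as toc1, were not paired. The ratio of mip1 to tor2 was 1.86 in mitosis and between 1.48 (6 h) and 1.80 (5 h) in meiosis. Within TOR complex 2 the ratio of ste20 to tor1 went from 0.73 (3 h) to 1.54 (8 h), and within the TSC complex the ratio of tsc1 to tsc2 went from 1.40 (4 h) to 3.06 (2 h, 2.81 to 3.33). There is no replicate library against which these hourly differences can be set.

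**Figure D3:**
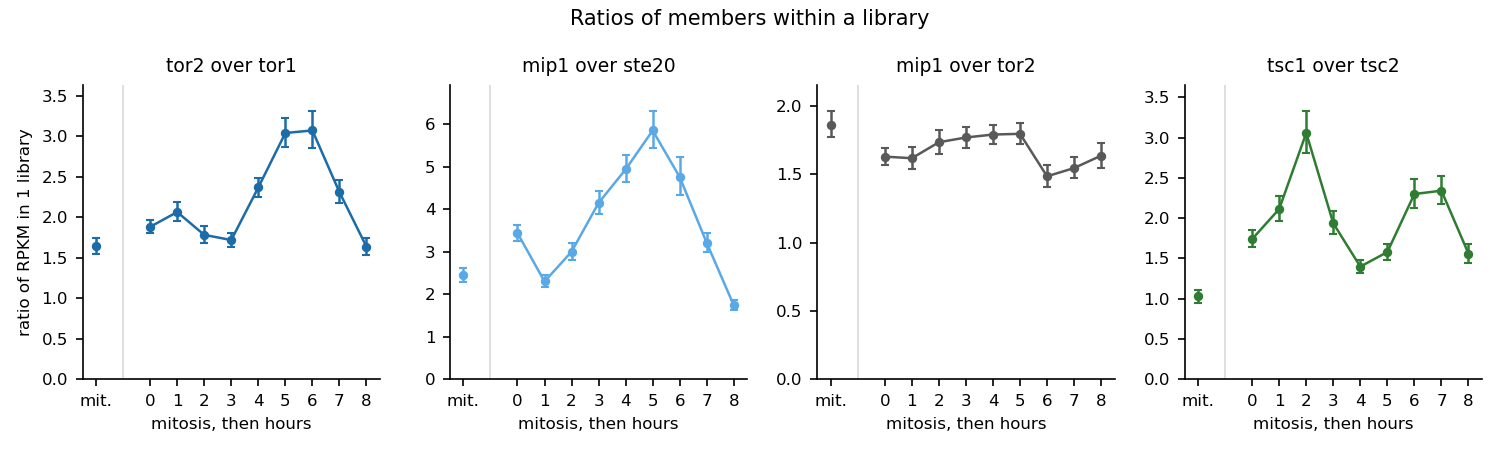
Ratio of the RPKM of 2 members within each library (vertical axis, from 0) in mitosis and at 0 h to 8 h (horizontal axis), with 95% counting intervals. The ratios of tor2 to tor1 and mip1 to ste20 are highest at 5 h to 6 h (3.07 and 5.85 at the top), mip1 to tor2 stays between 1.48 and 1.86, and tsc1 to tsc2 is highest at 2 h (3.06).

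The likeness of each gene's course to that of every other named gene was described by Pearson's r of log2(RPKM + 1) over the 10 libraries, for 3693 genes whose mean was not under 5 RPKM. The points are successive stages of 1 strain and share their libraries, so r is a description only. For mip1 the gene most like it was tor2, on deposited values (r = 0.97) and on rescaled values (r = 0.94). For tor2 on deposited values, mip1 ranked behind tlg1, which encodes a SNARE protein, and ahead of stt4, a phosphatidylinositol 4-kinase gene, with r = 0.97 for each of the 3. After rescaling mip1 ranked 6 for tor2, behind genes that include lvs1, vps901, tlg1 and stt4. No other pair of members was as alike. The pair ste20 and gad8 had r = 0.80 (0.71 after rescaling), tor1 and tor2 0.64 (0.15), tor1 and ste20 0.63 (0.23), and tsc1 and tsc2 0.27 (0.35). The pair mip1 and ste20 had 0.06, and -0.69 after rescaling.

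The genes most like the remaining members on deposited values were of varied kinds. For ste20 they were elp5 (elongator complex), phb2 (prohibitin) and mam33 (r = 0.98, 0.97 and 0.96), and these were the same 3 after rescaling. For gad8 they were pof7 (an F-box protein), syn1 (tricalbin) and grx3 (a glutaredoxin), at 0.97, 0.95 and 0.95. For tor1 they were pfl4 (a flocculin), cbs2 (the gamma subunit of AMP-activated kinase) and sfc6 (a subunit of transcription factor TFIIIC), at 0.98, 0.96 and 0.96. For tsc1 they were atg2 (autophagy), tri1 (a ribonuclease) and dpm2 (a mannosyltransferase subunit), at 0.98, 0.96 and 0.96. For tsc2 they were ptr1 (a ubiquitin ligase), mbx1 (a MADS-box factor) and pac1 (a double-strand ribonuclease), at 0.96, 0.95 and 0.94. For rhb1 they included rec8 (the meiotic cohesin kleisin) and mek1 (a meiotic kinase), each at 0.97. The 3 genes nearest to tor1, to tsc1 and to rhb1 were all others after rescaling, where the genes named here had r of 0.77 to 0.85 with tor1, 0.84 to 0.96 with tsc1 and 0.81 to 0.82 with rhb1.

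Around the 8 members, 42 further genes of the TOR network were read from 6 lists: other subunits of the complexes (5), the amino acid branch with Rag GTPases and GATOR (14), the inputs to complex 2 (3), AMP-activated kinase (5), downstream kinases and effectors (7), and the Greatwall and PP2A module (8). At 0 h against mitosis 10 of 42 were called higher and 0 lower, against 29.1% and 9.54% of all genes, and after rescaling 3 and 0, against 16.3% and 16.5%. At 6 h against 0 h 2 were higher and 16 lower, against 9.25% and 38.9% of all genes, and after rescaling 7 and 6, against 21.3% and 16.3%. The median change of the 42 genes at 6 h was -0.72, the same as that of all genes tested (-0.72). Over any later hour, 4 of 42 were called higher and 21 lower on the deposited scale, against 21.2% and 51.8% of all genes. On the rescaled scale 9 were called higher and 8 lower, against 33.5% and 25.1%. Called on both scales were 4 higher and 8 lower, for which no share of all genes was taken. The Ragulator subunit gene SPBC29A10.17 (lam1) was in both directions, at different hours.

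Several of these genes varied more than any member. The gene psk1, which encodes the S6 kinase that TOR complex 1 acts on, measured 72.6 RPKM in mitosis and 420 RPKM at 0 h, a change of 2.52 (2.00 after rescaling). The gene maf1, a repressor of RNA polymerase III, went from 16.2 to 74.7 RPKM between those libraries and stood at 19.8 RPKM at 5 h. Among the inputs to TOR complex 2, ryh1, a Rab GTPase gene, rose from 26.9 RPKM at 0 h to 110 RPKM at 7 h, a change of 1.99 (2.83 rescaled). Over the same course sat1, a subunit of the exchange factor for Ryh1, fell from 40.4 RPKM at 0 h to 7.49 RPKM at 6 h, a change of -2.29 (-1.58 rescaled). The genes ryh1 and sat1 therefore went in opposite directions on both scales. The remaining gene of that list, ric1 (sat4), also a subunit of the exchange factor, went the way of ryh1. Its change at 6 h was 0.53 (1.25 rescaled), and it was called higher at 6 h and 7 h on the rescaled scale alone.

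Of the other subunits, toc1 of TOR complex 1 fell from 80.4 RPKM at 0 h to 14.4 RPKM at 6 h (-2.41, and -1.68 rescaled) and was the only one of 5 called on both scales. The complex 2 subunit gene bit61 went from 55.7 RPKM at 0 h to 16.7 RPKM at 7 h, a call on the deposited scale alone. For AMP-activated kinase, the beta subunit gene amk2 fell from 416 to 102 RPKM at 7 h (-2.02, and -1.18 rescaled), and ssp1, the kinase upstream, rose from 59.1 to 184 RPKM at 8 h (1.62, and 2.17 rescaled). In the phosphatase module ppa1, a PP2A catalytic subunit gene, fell from 130 to 30.6 RPKM at 7 h (-2.05, and -1.21 rescaled), while the Endosulfine gene mug134 (igo1) went from 216 to 69.8 RPKM at 6 h on the deposited scale alone. In the amino acid branch, tam1 (lam3) rose from 91.9 to 293 RPKM at 8 h (1.66, and 2.21 rescaled), and lam2 went from 53.1 to 18.1 RPKM at 7 h, again on the deposited scale alone. The remaining genes called on both scales were gaf1, a GATA factor gene (66.1 to 14.9 RPKM at 6 h), and sck2, an AGC kinase gene (29.0 to 9.21 RPKM at 2 h).

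**Figure D4:**
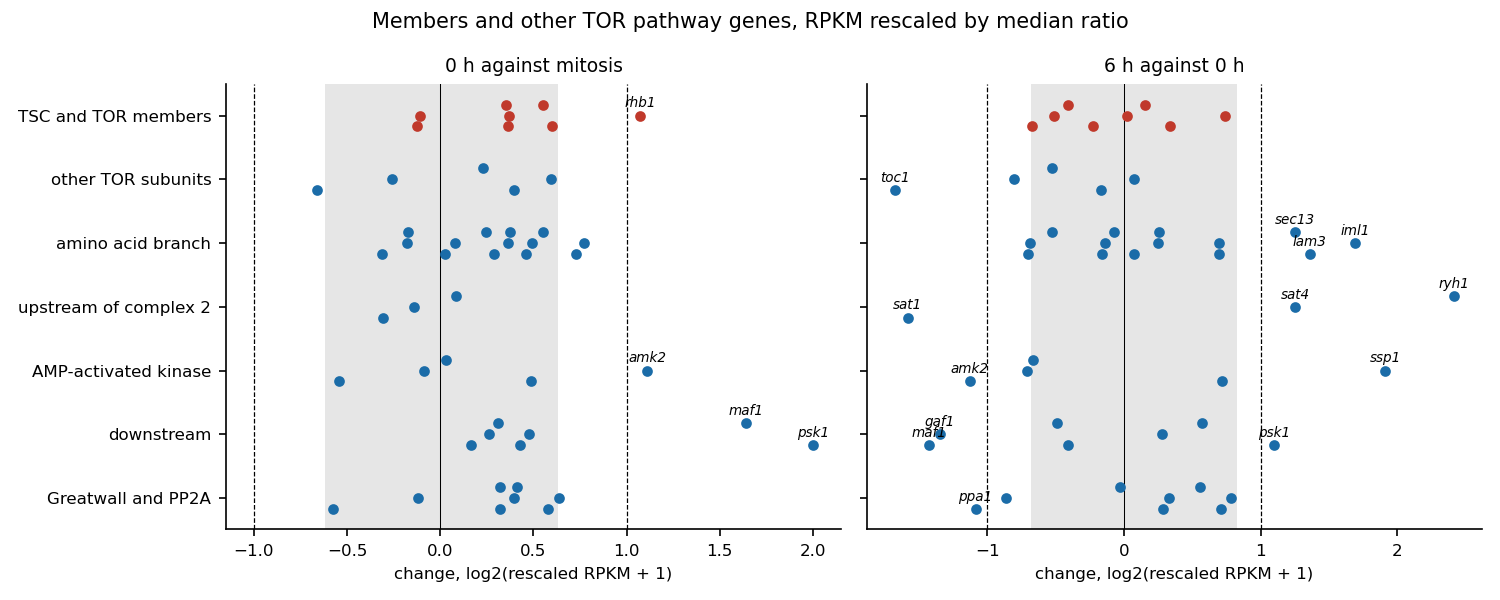
Change of each member (red) and of the 42 other TOR pathway genes (blue), by list on the vertical axis, on the log2(rescaled RPKM + 1) scale on the horizontal axis, for 0 h against mitosis (left) and 6 h against 0 h (right). The grey band holds the middle 50% of all genes tested, dashed lines mark 2-fold, and genes at or beyond 2-fold are named. In the right panel the members lie between -0.67 and 0.74, inside the dashed lines, and ryh1 (2.41) and toc1 (-1.68) lie farthest out.

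Genes known to be held down by Tor2 were read as a further list of 7: the permease genes isp5, per1 and put4, the vacuolar transporter gene fnx1, the oxygenase gene isp7, and mei2 and ste11, which drive meiosis. At 0 h against mitosis 6 of 7 were called higher on both scales, all but fnx1, with a median change of 4.08 (3.58 rescaled). Of all genes 29.1% were called higher (16.3% rescaled), with a median of 0.54 (0.03 rescaled). Expression of mei2 was 14.1 RPKM in mitosis and 1240 RPKM at 0 h, and that of isp7 was 17.9 and 319 RPKM. At 2 h against 0 h 7 of 7 were called lower on both scales, with a median of -3.67 (-3.39 rescaled), against 13.1% of all genes (6.92% rescaled), and isp7 was then at 6.30 RPKM. In the same 0 h library the members tor2 and mip1 stood 1.05 and 0.88 above mitosis, and 0.55 and 0.37 after rescaling, where tor2 no longer met the call. The list mixes genes with other known regulators, such as Ste11 and Mei2 of the meiotic switch, and what these changes owe to Tor2 activity was not tested.

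Members of neighbouring nutrient and stress pathways were set beside the TOR genes. Of 10 genes of the cyclic AMP and protein kinase A pathway, 5 were called higher at 0 h against mitosis on both scales, pka1 among them (20.7 to 98.1 RPKM), against 29.1% of all genes (16.3% rescaled). Of 10 genes of the stress kinase Sty1 pathway, 5 were higher (3 rescaled) against the same shares, with the phosphatase gene pyp2 at 5.85 RPKM in mitosis and 46.9 RPKM at 0 h. After rescaling, 4 of the first 10 and 6 of the second 10 genes were called lower at some hour against 0 h, where 25.1% of all genes and 0 of the 8 TOR and TSC genes were. At some hour 3 of the first 10 (git5, git11 and cgs1) and 2 of the second 10 (sty1 and pyp2) were called higher, against 33.5% of all genes and 0 of the 8. The difference between these lists was not tested.

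In the annotation of the ASM294v3 assembly, tor1, tor2, ste20 and rhb1 lie on chromosome II, mip1, tsc1 and tsc2 on chromosome I, and gad8 on chromosome III. Each member has 2 to 7 annotated genes on the opposite strand that overlap it. These include 7 noncoding RNAs across tor1, and 1 protein-coding gene each for gad8, tsc1, tsc2 and rhb1. One noncoding RNA, SPNCRNA.1363, overlaps rhb1 on its own strand. The libraries were made with a strand-specific kit, per the labels, but the use of strand in counting is not given in the sources used here, so reads of these overlapping genes may be included in the members' values, and their part was not tested.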

How the data were processed

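Gene RPKM values of 10 total RNA libraries were analysed, of 144 samples in the series. The other 134 samples were not analysed here. The authors deposited RPKM, per the file headers, with 10 columns named TPM beside them, which were not proportional to RPKM within a library and were not used. Each RPKM column carries a stage that is found in the title of a single sample. STAR 2.7.3a, Bowtie 1.2.2, cutadapt 1.18, SAMtools 1.9, bcl2fastq 1.17 and bedtools (2.26.0 and 2.27.1) are listed in the submitters' processing notes, as are the builds mm10 and ASM294v2, with no role stated. How reads were assigned to genes, with which annotation and strand setting, is not given in the labels or headers.

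The digits of the RPKM values gave whole reads, gene lengths and the reads each library was scaled to for 5131 of 5157 genes, with 100% of their values returned within 1e-08. These were used for depth and for counting intervals (exact Poisson, and exact binomial for ratios). No count test was possible with 1 library per stage. This recovery and the calls were tested on simulated data.

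Changes were taken on log2(RPKM + 1), a scale that makes changes of low genes look smaller. The alternatives were pseudocounts of 0.1 and 5, a ratio pseudocount of 1, median-ratio rescaling, no filter, a filter of 20 RPKM, a 4-fold call and mitosis as the reference. The members, the lists and the call rule were chosen with earlier results of these data known. Named genes were the 8 members, pathway genes called at 2-fold on both scales in any comparison together with the 2 largest changes of each list, and the 3 genes most like each member. Not every gene the rule took is described, and 1 of them is not reported here. Names were matched to the ASM294v3 annotation, whose own coordinates gave the chromosomes and the overlaps between annotated genes, and none was joined to the deposited values or is printed. The tools were Python 3.11.15, NumPy 2.4.6, pandas 2.3.3, matplotlib 3.10.9 and SciPy 1.17.1.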

Additional observations from a re-analysis of the deposited data

How the results depend on the processing

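The counts of members called depend on the scale. The 3 called higher at 0 h against mitosis became 1 with a pseudocount of 5 and 1 after rescaling, and 0 at 4-fold. The 3 called lower at 6 h became 1 with a pseudocount of 5, 0 after rescaling and 0 at 4-fold. The single call at 7 h and the 2 at 8 h each became 0 under these 3 settings. At 2 h the count of 0 became 1 with a pseudocount of 0.1. Over any hour the 5 called lower became 1 with a pseudocount of 5, 0 after rescaling, 0 at 4-fold, and 2 without 6 h and 7 h, a choice made after seeing the data. The sizes of the members' changes also depended on the setting. With mitosis as the reference, 63 changes moved beyond counting error and 1 called change reversed its sign. That was tor2 at 8 h, -1.02 against 0 h and 0.025 against mitosis. After rescaling 66 changes moved beyond counting error and 6 did not. With a pseudocount of 5, 22 moved and 50 did not, and with a pseudocount of 0.1 all 72 stayed within it. With a pseudocount of 1 the log2 ratio of tor2 to tor1 at 6 h was 1.51 in place of 1.62, and that of mip1 to ste20 at 5 h 2.44 in place of 2.55. Without a filter no count of members called differed. With a filter of 20 RPKM the 3 called lower at 6 h became 2 and the 5 at any hour 4, as ste20 was under that level in both libraries, and no other count differed. The causes were not tested, except that rescaling removes the median shift of all genes by construction. No paired analysis was possible because each stage has 1 library and no replicate number. Depth is not the limit for these genes, with 562 reads or more each, but the lack of replicate libraries is, and counting intervals say nothing of the spread between cultures.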
